A study of Sus scrofa with 13 samples.

Results

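Adenylate kinase 1 (AK1), AMP deaminase 1 (AMPD1) and carbonic anhydrase 3 (CA3) are 3 abundant enzymes of skeletal muscle, 3 of the 10283 genes that could be named on these arrays. They were selected by gene symbol, with earlier results across the 4 groups known. Where a gene had several probe sets, its probe set was chosen by the highest mean over the 13 arrays. All 3 members were measured, AK1 and CA3 by 1 probe set each and AMPD1 by 3, and all 3 stayed in when dim probe sets were left out. Because the members were picked with these values in view, their levels and differences are given as a description with no test.

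The arrays held RNA of the biceps femoris, a thigh muscle, from 13 German Landrace pigs, each on its own array. Among the pigs aged 3 months, 3 lacked functional dystrophin (DMD KO) and 3 were wild type (WT). Among those aged 2 days, 4 were DMD KO and 3 were WT. The knockout animals carried a DMD gene without exon 52 and came from nuclear transfer of edited kidney cells. Their muscle was taken right after they had died, whereas WT animals of matching age were euthanised, so genotype, cloning and manner of death cannot be told apart. All values are log2 levels, with the base inferred from their range, so a difference of 1 is a doubling.

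Muscle contraction turns ATP into ADP. Adenylate kinase joins pairs of ADP molecules into ATP and AMP, and AMP deaminase then converts the AMP into IMP, which keeps the adenylate kinase reaction running toward ATP. The purine nucleotide cycle returns IMP to AMP through adenylosuccinate, and creatine kinase and phosphocreatine form the other fast buffer of ATP. Carbonic anhydrase interconverts carbon dioxide and bicarbonate and so takes part in buffering acid. In mammalian muscle AMPD1 and AK1 are abundant in fast fibres, and CA3 is a major soluble protein of slow fibres.

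Medians of the arrays lay between 7.32 and 7.38. The array of WT replicate 3 at 2 days stood apart from the others, with a mean correlation to them of 0.918, against 0.943 to 0.964 for the other arrays. General muscle markers were present in all groups, and their summed linear level separated the genotypes without overlap in opposite directions at the 2 ages. It was 22585 to 25109 in DMD KO and 25927 to 26609 in WT at 3 months, and 24799 to 25704 in DMD KO and 21544 to 24373 in WT at 2 days. Of 6 measured general muscle markers none passed the test (limma, adjusted p under 0.05) between genotypes at 3 months (2 at an unadjusted p under 0.05), and 1 was higher in DMD KO at 2 days (2 higher and 0 lower at an unadjusted p under 0.05). The called marker was TCAP, a protein of the Z-disc, with means of 9.15 in DMD KO and 8.41 in WT (0.74 ± 0.15, SE, adjusted p = 0.0108). Of all probe sets, 5.98% passed between genotypes at 3 months and 9.93% at 2 days. The part of muscle content in the enzyme values was not tested.

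AK1, the cytosolic adenylate kinase of muscle, was lower in DMD KO than in WT at both ages. At 3 months its levels were 9.25, 9.62 and 8.92 in DMD KO replicates 1 to 3, against 11.04, 10.85 and 11.13 in WT replicates 1 to 3. The highest DMD KO animal lay more than a full log2 unit below the lowest WT animal. The means were 9.26 ± 0.35 in DMD KO and 11.00 ± 0.14 in WT (SD, n = 3 each), a difference of -1.74 ± 0.26 (SE, 95% interval -2.31 to -1.18), or 3.35-fold lower in DMD KO.

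At 2 days AK1 stood at 8.08, 8.37, 7.20 and 8.17 in DMD KO replicates 1 to 4, against 9.83, 9.39 and 9.54 in WT replicates 1 to 3. The groups did not overlap, and DMD KO replicate 3 was the lowest animal of the series, below the median of its own array (7.36). The means were 7.95 ± 0.52 in DMD KO (SD, n = 4) and 9.59 ± 0.22 in WT (SD, n = 3), a difference of -1.63 ± 0.24 (SE, 95% interval -2.16 to -1.10), or 3.10-fold lower. The difference was -1.38 without DMD KO replicate 3 and -1.65 without WT replicate 3. Subtracting the newborn genotype difference from that at 3 months gave -0.11 ± 0.36 (SE), with a 95% interval from -0.89 to 0.67.

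AMPD1, the deaminase that removes AMP in fast fibres, was also lower in DMD KO at both ages, with a larger difference in the newborn animals. At 3 months its levels were 10.91, 11.22 and 10.87 in DMD KO replicates 1 to 3, against 11.87, 11.82 and 11.98 in WT replicates 1 to 3. The groups did not overlap, and the 3 WT animals lay within 0.17 of each other. The means were 10.997 ± 0.19 in DMD KO and 11.89 ± 0.085 in WT (SD, n = 3 each), a difference of -0.89 ± 0.30 (SE, 95% interval -1.55 to -0.24), or 1.86-fold lower in DMD KO.

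At 2 days AMPD1 had 9.07, 9.72, 8.13 and 9.07 in DMD KO replicates 1 to 4, against 11.50, 10.84 and 10.91 in WT replicates 1 to 3. Again no DMD KO animal reached the lowest WT animal. DMD KO replicate 3 was lowest and replicate 2 highest among the knockout newborns, as they were for AK1. The means were 8.998 ± 0.66 in DMD KO (SD, n = 4) and 11.08 ± 0.36 in WT (SD, n = 3), a difference of -2.09 ± 0.28 (SE, 95% interval -2.70 to -1.47), or 4.24-fold lower. It was -1.80 without DMD KO replicate 3 and -2.17 without WT replicate 3. Subtracting the newborn genotype difference from that at 3 months gave 1.19 ± 0.42 (SE, 95% interval 0.29 to 2.09, not adjusted for the number of probe sets), that is, the gap to WT was smaller at 3 months.

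The other AMPD1 probe sets gave close values. Over the 13 arrays they lay within 0.25 and 0.29 of the one used, and their genotype differences were -1.001 and -1.01 at 3 months and -2.01 and -1.996 at 2 days. They may share probes with each other, so they are not separate evidence.

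CA3, the low-activity carbonic anhydrase of muscle, overlapped between genotypes at both ages and was separated by age. At 3 months its levels were 11.55, 12.08 and 11.33 in DMD KO replicates 1 to 3, against 12.08, 12.28 and 11.76 in WT replicates 1 to 3. The groups overlapped, with DMD KO replicate 2 among the WT animals. The means were 11.65 ± 0.39 in DMD KO and 12.04 ± 0.26 in WT (SD, n = 3 each), a difference of -0.39 ± 0.26 (SE, 95% interval -0.95 to 0.18). It was -0.60 without DMD KO replicate 2, -0.23 without DMD KO replicate 3, and between these values without any other array. With array weights it was -0.18.

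At 2 days CA3 stood at 8.73, 9.33, 8.75 and 9.37 in DMD KO replicates 1 to 4, against 8.12, 8.89 and 8.83 in WT replicates 1 to 3. The groups overlapped here too, with WT replicate 1 below all others. The means were 9.05 ± 0.35 in DMD KO (SD, n = 4) and 8.61 ± 0.43 in WT (SD, n = 3), a difference of 0.43 ± 0.24 (SE, 95% interval -0.10 to 0.96). It was 0.18 without WT replicate 1, 0.57 without WT replicate 2 and 0.54 without WT replicate 3. With array weights it was 0.71, and after quantile normalization 0.25. Subtracting the newborn genotype difference from that at 3 months gave -0.82 ± 0.36 (SE, 95% interval -1.60 to -0.04, not adjusted for the number of probe sets).

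Groups without overlap were frequent on these arrays. DMD KO and WT did not overlap in 23.0% of all 21893 probe sets at 3 months and in 24.6% at 2 days. AK1 and AMPD1 belonged to these at both ages and CA3 at neither, and since the genes were picked with these contrasts in view nothing is read from that count.

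**Figure D1:**
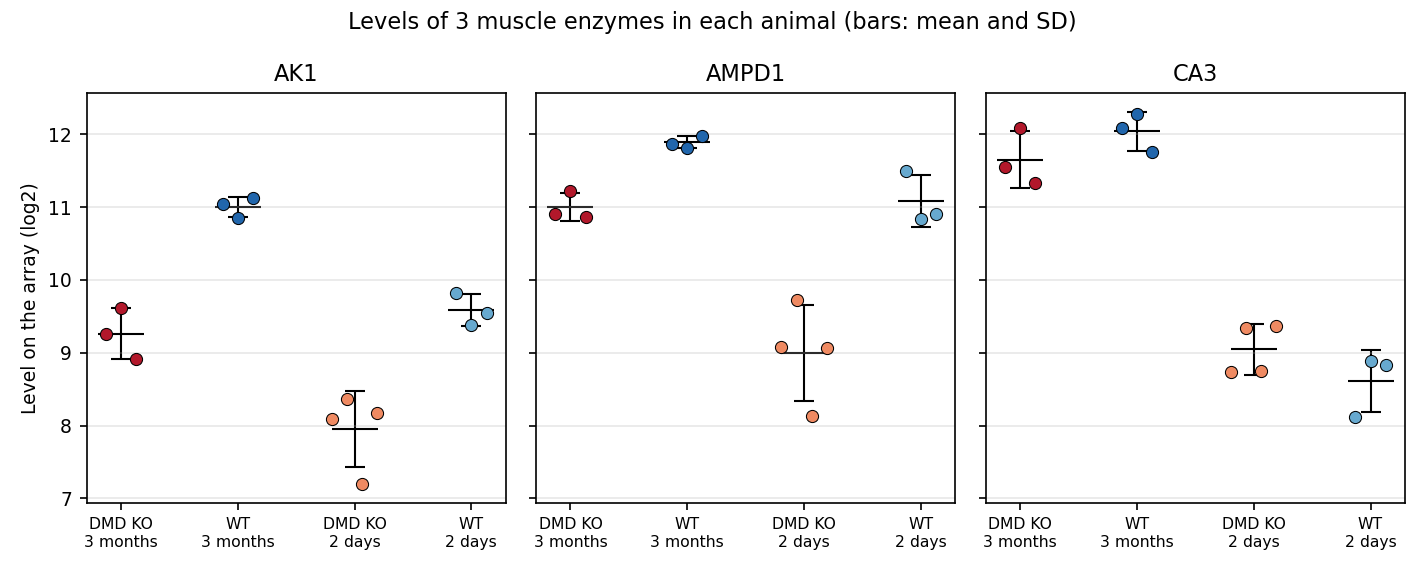
Log2 levels of AK1, AMPD1 and CA3 in each of the 13 animals, by group (DMD KO and WT at 3 months, DMD KO and WT at 2 days), with 1 point per array and black bars for the mean and SD. AK1 and AMPD1 lie lower in DMD KO than in WT at each age, whereas the genotypes overlap for CA3 and its levels at 3 months (11.33 to 12.28) all exceed those at 2 days (8.12 to 9.37).

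All 3 enzymes had higher levels at 3 months than at 2 days in both genotypes, without overlap between the ages. In DMD KO the age difference, 3 months minus 2 days, was 1.31 ± 0.24 for AK1, 1.999 ± 0.28 for AMPD1 and 2.61 ± 0.24 for CA3 (SE). In WT it was 1.42 ± 0.26 for AK1, 0.81 ± 0.30 for AMPD1 and 3.43 ± 0.26 for CA3 (SE). CA3 thus had the largest postnatal difference of the 3 in each genotype, 6.10-fold higher at 3 months in DMD KO and 10.8-fold higher in WT. Over all probe sets the ages did not overlap in 20.8% in DMD KO and in 13.3% in WT.

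Ordered by group mean, AK1 and AMPD1 shared an order. WT at 3 months was highest, WT at 2 days and DMD KO at 3 months followed with overlapping values, and DMD KO at 2 days was lowest. The levels of AMPD1 in DMD KO at 3 months (10.87 to 11.22) lay inside the range in WT at 2 days (10.84 to 11.50), and the difference was -0.09 ± 0.30 (SE, 95% interval -0.74 to 0.57). For AK1 the levels were 8.92 to 9.62 in DMD KO at 3 months and 9.39 to 9.83 in WT at 2 days, and the difference was -0.32 ± 0.26 (SE, 95% interval -0.89 to 0.24). These intervals do not show that the groups were equal. CA3 had another order. DMD KO and WT at 3 months overlapped at the top, DMD KO and WT at 2 days overlapped at the bottom, and DMD KO at 3 months exceeded WT at 2 days by 3.04 ± 0.26 (SE). These 2 groups, DMD KO at 3 months and WT at 2 days, did not overlap in 22.9% of all probe sets.

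**Figure D2:**
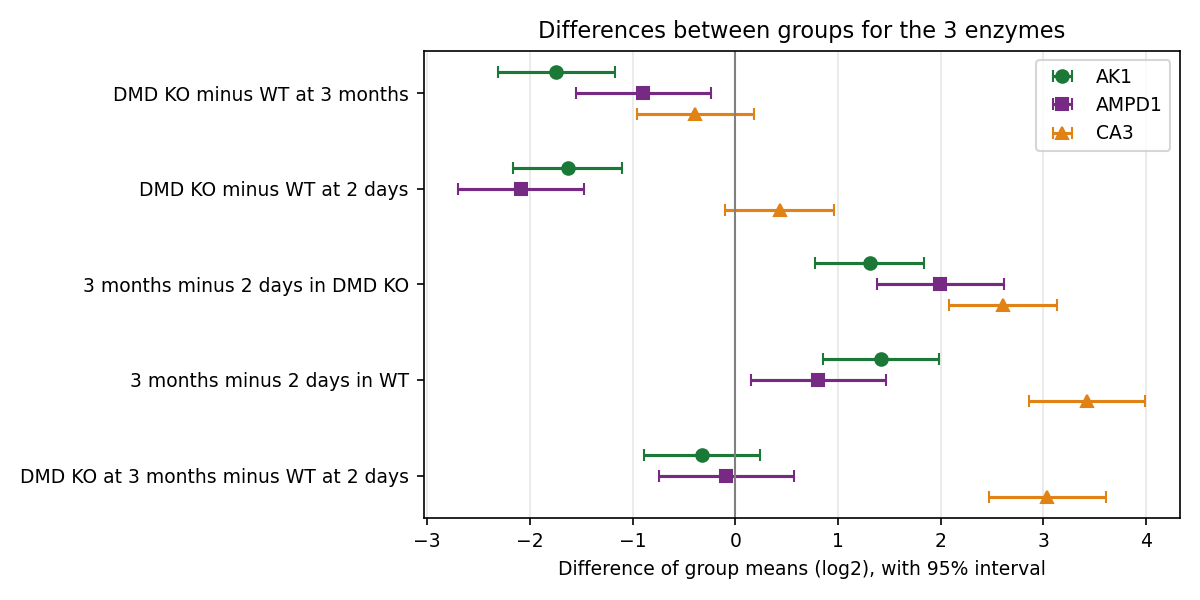
Differences between group means of AK1, AMPD1 and CA3 (log2 on the horizontal axis, with unadjusted 95% intervals) for 5 pairs of groups, the first-named group minus the second. Genotype differences are below 0 for AK1 and AMPD1 at both ages, and in the lowest row AK1 stands at -0.32, AMPD1 at -0.09 and CA3 at 3.04.

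Within groups AK1 and AMPD1 also varied together. The deviations of the 13 arrays from their group means had a Pearson r of 0.92 and a Spearman rho of 0.93 between AK1 and AMPD1. Without DMD KO replicates 2 and 3 at 2 days, the 2 arrays farthest from the median of AK1, r was 0.82 over 11 arrays. The corresponding r with CA3 was 0.32 for AK1 and 0.19 for AMPD1, and 0.05 and -0.35 without those arrays. These are descriptions over animals that share a normalization and, in 4 small groups, a group mean. The spread was widest in DMD KO at 2 days for AK1 and AMPD1, with an SD of 0.52 and 0.66.

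**Figure D3:**
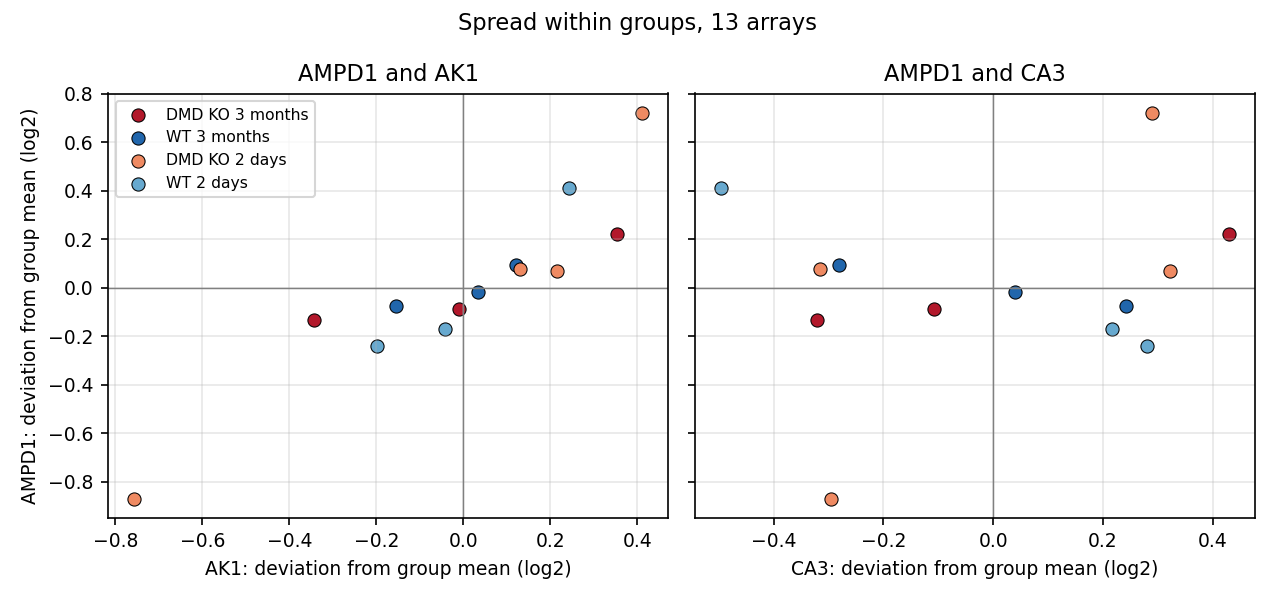
Deviation of AMPD1 from its group mean (log2, vertical) against the deviation of AK1 (left) and of CA3 (right) on each of the 13 arrays, coloured by group. AMPD1 and AK1 deviate together (r = 0.92), with 2 newborn DMD KO animals at the extremes, and AMPD1 and CA3 show no such line (r = 0.19).

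Among the 10282 other named genes, those whose levels over the 13 arrays were most like AK1 were GADL1 (r = 0.97), a decarboxylase of amino acids, TPI1 (0.97), the triosephosphate isomerase of glycolysis, and P2RY1 (0.97), a receptor for ADP. For AMPD1 they were LDHA (0.97), a lactate dehydrogenase subunit, NREP (0.97) and MYOM2 (0.96), which belongs to the sarcomere's M-band. For CA3 they were MSS51 (0.97), SLA-DRA (0.95), an MHC class II chain, and TESK1 (0.93), a protein kinase. Such values over levels follow the group means and rest on 4 groups. By deviations from the group means the genes most like AK1 were CASQ1 (0.93), the calcium store protein of fast fibres, AMPD1 (0.92) and LOC100513612 (0.91), and those most like AMPD1 were AK1, CASQ1 (0.90) and THRA (0.87), a thyroid hormone receptor. For CA3 they were OAS1 (0.94), an interferon-induced enzyme, LOC100049687 (0.93) and LOC100157689 (0.89). LOC100513612, with means of 4.41 to 4.50, and LOC100049687, with 4.95 to 5.41, lay below the 25th percentile of every array (6.53 to 6.61).

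Fibre and cell type markers differed between the groups alongside these enzymes. Of all probe sets, 5.98% were called between genotypes at 3 months and 9.93% at 2 days. Of 10 measured fast-fibre markers 4 were lower in DMD KO at 3 months (median -0.56 over the list, against -0.05 over all probe sets) and 4 at 2 days (median -0.31, against -0.02). None was called higher, and at an unadjusted p under 0.05 none was higher at 3 months and 1 at 2 days. Their summed linear level was 29661 to 33839 in DMD KO and 41220 to 46023 in WT at 3 months, and 21794 to 28031 in DMD KO and 28876 to 35863 in WT at 2 days. Of 9 slow-fibre markers 1 was higher in DMD KO at 3 months (median 0.11) and 4 at 2 days (median 0.91). At an unadjusted p under 0.05, 3 slow-fibre markers were higher and 1 lower at 3 months, and 8 were higher and 0 lower at 2 days. Their summed level was 22708 to 26473 in DMD KO and 13128 to 28962 in WT at 3 months, and 27329 to 31354 in DMD KO and 14902 to 18967 in WT at 2 days. At 3 months the DMD KO animals also had higher levels of 6 of 9 fibroblast and 6 of 8 macrophage markers, and at 2 days lower levels of 6 of 9 fibroblast markers and 0 of 8 macrophage markers called, also at an unadjusted p under 0.05.

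The sums for fibroblast markers were 23373 to 25216 in DMD KO and 11326 to 17275 in WT at 3 months, and 7339 to 9892 in DMD KO and 24526 to 25166 in WT at 2 days. Macrophage markers summed to 2635 to 4027 in DMD KO and 1375 to 1827 in WT at 3 months, and to 1499 to 1650 in DMD KO and 1522 to 1739 in WT at 2 days. Adipocyte markers, relevant because fat cells of rodents also make CA3, were called lower in DMD KO for 0 of 8 genes at 3 months (1 at an unadjusted p under 0.05) and 2 of 8 at 2 days. They summed to 1457 to 1606 in DMD KO and 1726 to 2316 in WT at 3 months, and to 2171 to 2411 in DMD KO and 1865 to 4700 in WT at 2 days. The part of these cells and fibres in the enzyme values was not tested. In whole muscle, fewer cells or fibres of a kind and less RNA in each of them cannot be told apart.

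The enzymes around the 3 members were examined through 9 pathway lists with 94 genes, of which 44 were measured under a single symbol. The lists were written with earlier results of these data known. Nothing is therefore read from their called shares beside those of all probe sets, here or in the later comparisons. AMPD2, AMPD3, ADSS1, CKM, CA2, SLC16A3 and PRKAG3 were not analysed here. At 3 months 7 of the 44 genes passed the test between genotypes, 4 higher and 3 lower in DMD KO (15.9%, against 5.98% of all probe sets and 7.36% of all named genes). At 2 days 8 passed, 5 higher and 3 lower (18.2%, against 9.93% of probe sets and 11.4% of named genes). The median difference of the 44 genes was 0.05 at 3 months and -0.03 at 2 days, against -0.05 and -0.02 over all probe sets. Without WT replicate 3 at 3 months the first count was 4, and without WT replicate 3 at 2 days the second was 3. The second count was also 4 or 5 without DMD KO replicate 1, 3 or 4 or WT replicate 1 at 2 days or without DMD KO replicate 2 at 3 months.

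Of the 4 other adenylate kinases measured, 1 passed between genotypes. AK4, a mitochondrial isoform, was lower in DMD KO at 2 days (-0.64 ± 0.16, SE, adjusted p = 0.0291), and it stood at -0.19 ± 0.17 at 3 months (adjusted p = 0.563). At 2 days its means were 6.56 in DMD KO, below the 25th percentile of the arrays of that group, and 7.20 in WT. Its call ended without DMD KO replicate 1, 2 or 3 or WT replicate 2 at 2 days (adjusted p from 0.0524 to 0.0699). In the purine nucleotide cycle ADSL, the adenylosuccinate lyase, differed by -0.13 at 3 months (adjusted p = 0.639) and 0.33 at 2 days (adjusted p = 0.13), and ADSS, an adenylosuccinate synthase, by 0.58 (adjusted p = 0.262) and 0.51 (adjusted p = 0.203). By limma 0 of 4 measured genes of purine synthesis passed between genotypes at either age (2 at 3 months and 0 at 2 days at an unadjusted p under 0.05).

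Enzymes that remove the phosphate of AMP and IMP moved in different directions. NT5E, the 5′-nucleotidase on the cell surface, had 8.04, 8.0003 and 7.91 in DMD KO and 7.29, 7.54 and 7.32 in WT at 3 months, and 6.99, 6.99, 7.22 and 6.89 in DMD KO and 7.70, 7.97 and 7.74 in WT at 2 days. It was thus higher in DMD KO at 3 months (0.60 ± 0.11, SE, adjusted p = 0.00712) and lower at 2 days (-0.78 ± 0.11, SE, adjusted p = 0.00114), with no overlap at either age. NT5E is also a surface marker of mesenchymal cells. Its directions were those of the called fibroblast markers at both ages, and any part of fibroblast content in its values was not tested.

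NT5C1A, the cytosolic AMP nucleotidase of muscle, had 6.81, 6.67 and 6.44 in DMD KO and 7.39, 7.49 and 7.10 in WT at 3 months, a difference of -0.69 ± 0.13 (SE, adjusted p = 0.00915). At 2 days it was lower by a smaller amount (-0.43 ± 0.13, SE, adjusted p = 0.0489), at means of 6.28 in DMD KO, below the 25th percentile of the arrays, and 6.71 in WT. That second call ended without any 1 of 10 arrays (adjusted p from 0.0502 to 0.159), WT replicate 3 at 2 days among them. NT5C2, the nucleotidase that favours IMP, was higher in DMD KO at 2 days (1.71 ± 0.37, SE, adjusted p = 0.0129). Its values were 10.45, 10.38, 10.19 and 10.77 in DMD KO, against 9.37, 8.90 and 7.95 in WT, and without WT replicate 3 the difference was 1.31 (adjusted p = 0.0521).

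In the creatine system CKMT2, the mitochondrial creatine kinase of striated muscle, was lower in DMD KO at 3 months (-1.29 ± 0.20, SE, adjusted p = 0.00184). Its levels were 8.26, 8.54 and 7.91 in DMD KO and 9.64, 9.62 and 9.32 in WT at 3 months. At 2 days the order was the other way without passing the test, with 9.71 ± 0.26 in DMD KO (SD, n = 4) and 9.22 ± 0.28 in WT (SD, n = 3), a difference of 0.49 ± 0.18 (SE, adjusted p = 0.110, limma). GATM, the first enzyme of creatine synthesis, was higher in DMD KO at 3 months (0.70 ± 0.15, SE, adjusted p = 0.0181) and at 2 days (0.52 ± 0.14, SE, adjusted p = 0.0419). The first call ended without DMD KO replicate 3 or WT replicate 3 at 3 months (adjusted p = 0.0858 and 0.0814). The second ended without any 1 of 8 arrays (adjusted p from 0.0501 to 0.123), WT replicate 3 at 2 days among them.

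AMP-activated protein kinase is the sensor that reads the AMP level. PRKAA2, its catalytic subunit of muscle, was lower in DMD KO at 3 months (-1.25 ± 0.22, SE, adjusted p = 0.00499), with 10.10, 10.33 and 10.08 in DMD KO and 11.69, 11.14 and 11.43 in WT. At 2 days it had 10.33 ± 0.03 in DMD KO (SD, n = 4) and 10.04 ± 0.57 in WT (SD, n = 3), where WT replicate 3 alone was at 9.38. PRKAG1, a nucleotide-binding subunit, was higher in DMD KO at 2 days (0.96 ± 0.17, SE, adjusted p = 0.00571), with 9.41, 9.27, 9.27 and 9.44 in DMD KO and 8.39, 8.88 and 7.90 in WT.

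By limma 0 of the 6 other measured carbonic anhydrases passed between genotypes at either age. At an unadjusted p under 0.05, 3 were lower and 0 higher in DMD KO at 3 months, and 2 were higher and 0 lower at 2 days. CA4, a membrane-bound form, differed by -0.25 at 3 months (adjusted p = 0.221) and -0.09 at 2 days (adjusted p = 0.599). CA14, another membrane form, differed by -0.47 (adjusted p = 0.192) and 0.47 (adjusted p = 0.110).

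Among transporters of lactate, protons and bicarbonate SLC16A1, a lactate carrier, differed by 0.20 at 3 months (adjusted p = 0.677) and 0.05 at 2 days (adjusted p = 0.906). SLC16A7, another monocarboxylate carrier, was higher in DMD KO at 3 months (1.72 ± 0.34, SE, adjusted p = 0.00989, and 0.0509 without WT replicate 3 at 3 months). Its WT mean there was 6.38, below the 25th percentile of the arrays. HVCN1, a proton channel known from leukocytes, was higher at 3 months (1.03 ± 0.21, SE, adjusted p = 0.0109), and its call ended without DMD KO replicate 3 or WT replicate 2 or 3 at 3 months (adjusted p from 0.0532 to 0.0557). At 2 days the sodium bicarbonate cotransporter SLC4A7 was higher (1.18 ± 0.28, SE, adjusted p = 0.0209). That call ended without DMD KO replicate 1 or 4 or WT replicate 3 at 2 days (adjusted p from 0.0517 to 0.0632), and the difference was 0.79 without the last. SLC4A10, from the same family, was higher at 2 days too (0.78 ± 0.21, SE, adjusted p = 0.0388), with means of 6.03 in DMD KO and 5.25 in WT, both below the 25th percentile. Its call ended without any 1 of 8 arrays (adjusted p from 0.0503 to 0.107), WT replicate 3 at 2 days among them. CNDP1 and CNDP2, which cleave histidine dipeptides, did not pass at either age, nor at an unadjusted p under 0.05.

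**Figure D4:**
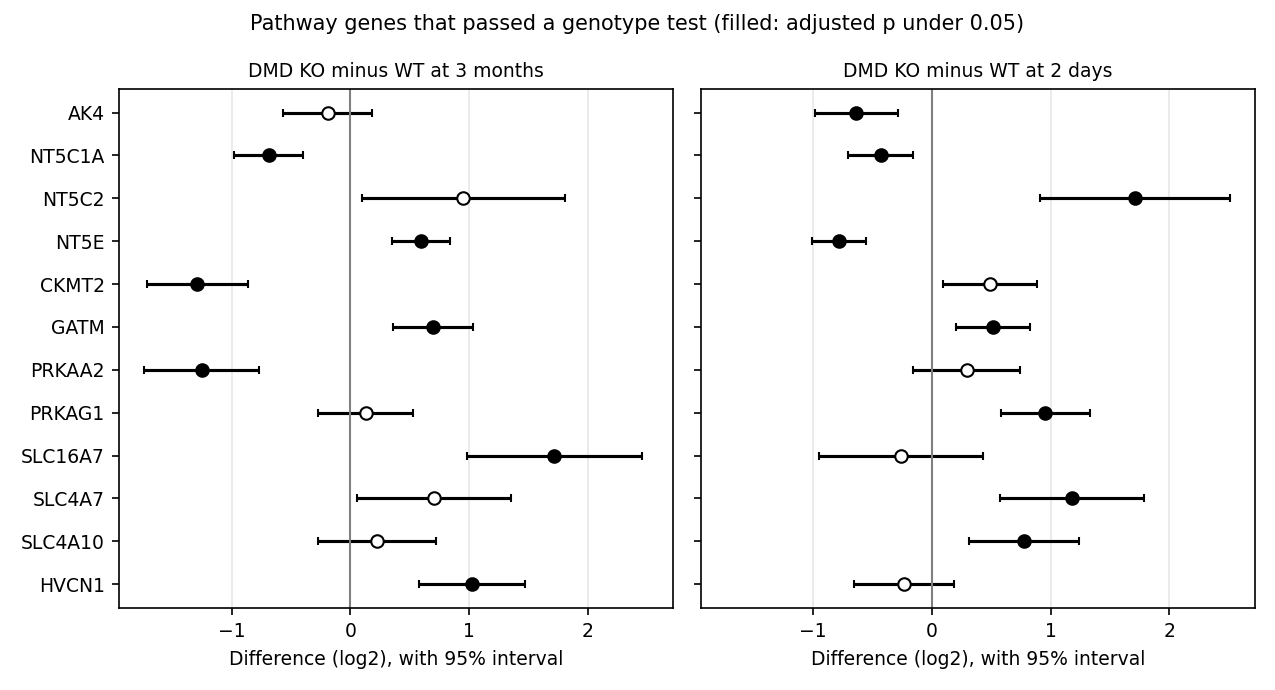
Difference between DMD KO and WT (log2, with unadjusted 95% intervals) at 3 months (left) and 2 days (right) for the 12 pathway genes that passed the test at either age, with filled points where the adjusted p was under 0.05. NT5E changes sides between the ages (0.60 and -0.78), and CKMT2 and PRKAA2 stand at -1.29 and -1.25 at 3 months.

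Whether the genotype difference itself differed between the ages was tested for the same 44 genes. In 5 of them it did, 3 toward higher and 2 toward lower values in DMD KO at 3 months (11.4%, against 5.05% of all probe sets and 6.17% of named genes). The count was 3 without DMD KO replicate 3 or WT replicate 2 at 3 months. CKMT2 (-1.78 ± 0.27, SE, adjusted p = 0.00227) and PRKAA2 (-1.55 ± 0.31, SE, adjusted p = 0.0113) had the negative values, and NT5E (1.38 ± 0.15, SE, adjusted p = 0.000323) was among the positive ones.

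Between the ages 9 of the 44 genes passed in DMD KO, 5 higher and 4 lower at 3 months (20.5%, against 8.04% of probe sets and 9.85% of named genes), and 5 passed without DMD KO replicate 2 at 3 months. In WT 4 passed, all higher at 3 months (9.09%, against 2.89% of probe sets and 3.33% of named genes). That count was 7 without WT replicate 3 at 2 days, 2 without WT replicate 1 or 2 at 2 days and 1 without WT replicate 1 at 3 months. PRKAA2 had 11.42 at 3 months and 10.04 at 2 days in WT (1.38 ± 0.22, SE, adjusted p = 0.00558). The PRKAA2 difference was 1.05 without WT replicate 3 at 2 days. Its call held whichever array was left out, but ended with only the groups of the contrast fitted. CKMT2 had 8.24 at 3 months and 9.71 at 2 days in DMD KO (-1.47 ± 0.18, SE, adjusted p = 0.000296), the opposite sign to AK1, AMPD1 and CA3 in the same animals.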

How the data were processed

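The deposited table holds log2 levels of 21893 probe sets on 13 arrays, 1 per animal and none pooled; per the submitters' processing notes the authors used Affymetrix Power Tools. Its version and its background, summary and normalization steps were not given in the sources used here. Detection calls were not used. Values run from 2.81 to 13.8, and the log base is inferred from them. Precision is limited by the number of arrays.

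Symbols came from the platform annotation, with 5 updated by gene number. A single symbol was found for 11028 probe sets, several for 418 and none for 10447. A gene has its probe set with the highest mean. The linear model (limma 3.58.1, R 4.3.3, lmFit and eBayes) covered every probe set and the 4 groups, with 9 residual degrees of freedom and Benjamini-Hochberg adjustment over all probe sets, two-sided, and called at an adjusted p under 0.05. The fit was tested on simulated data. Summed marker levels are sums of 2 to the power of the log2 levels.

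Members and lists were chosen with earlier results of these data known, and members get no p. Named beside them are fixed functional neighbours, up to 4 called genes per list and direction, and the 3 genes most like each member by Pearson r. Alternatives were fits on the contrast's groups alone, trend and robust eBayes, quantile normalization, median centring, leaving out dim probe sets (mean below the median), array weights, a replicate block, the mean of a gene's probe sets, and leaving out each array. The labels call the animals biological replicates and do not tie same-numbered animals, and deviations of same-numbered DMD KO and WT arrays correlated between -0.35 and 0.31, so replicate numbers were not used as pairs. No protein or promoter sequence of these genes was used here.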

Additional observations from a re-analysis of the deposited data

Results flagged for a closer look

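For 5 genes of the pathway lists the genotype difference, DMD KO minus WT, at 3 months differed from that at 2 days by limma's interaction term. NT5E differed by 1.38 (adjusted p = 0.000323), CKMT2 by -1.78 (adjusted p = 0.00227) and PRKAA2 by -1.55 (adjusted p = 0.0113), and these 3 calls held whichever 1 of the 13 arrays was left out. The PRKAA2 value was -1.22 without WT replicate 3 at 2 days. Of the 5 genes, only NT5E and CKMT2 kept their call with the replicate number as a block. SLC16A7 differed by 1.98 (adjusted p = 0.0284), a call that ended without DMD KO replicate 1, 2 or 4 at 2 days, DMD KO replicate 3 at 3 months or WT replicate 2 or 3 at 3 months (adjusted p from 0.0519 to 0.0725). HVCN1 differed by 1.26 (adjusted p = 0.0227), a call that ended without DMD KO replicate 2 or 3 or WT replicate 2 or 3 at 3 months (adjusted p from 0.0563 to 0.0627).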

How the results depend on the processing

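The differences of AK1, AMPD1 and CA3 between genotypes and between ages kept their sign under every alternative run. The genotype differences of CA3 were the ones that moved by over 1.5 times, at 3 months (-0.39) to -0.18 with array weights and at 2 days (0.43) to 0.71 with array weights and 0.25 after quantile normalization, besides the left-out arrays named with them. The small interaction of AK1 (-0.11) ranged from -0.36 to 0.06 over left-out arrays and was 0.12 with array weights. Counts of called genes moved more. With only the groups of the contrast fitted, 4 pathway genes and 1275 probe sets passed between genotypes at 2 days, and 0 pathway genes (limma, 8 at an unadjusted p under 0.05) and 40 probe sets passed between ages in WT. Without dim probe sets 5, 5 and 2 pathway genes passed between genotypes at 2 days, between ages in DMD KO and between ages in WT. With array weights 2310 probe sets passed between genotypes at 3 months, 3258 and 1225 between ages in DMD KO and WT, and 1892 in the interaction, with 8 pathway genes between ages in WT. With the replicate number as a block, which the labels do not tie to animals, 3 and 2 pathway genes and 585 and 471 probe sets passed between genotypes at 3 months and 2 days, 1122 probe sets between ages in DMD KO, 1 pathway gene and 325 probe sets between ages in WT, and 2 pathway genes and 407 probe sets in the interaction. The AMPD1 difference at 2 days with that block was -2.11.

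Leaving out 1 array at a time, pathway genes called ranged from 4 to 9 between genotypes at 3 months, 3 to 8 at 2 days, 5 to 10 between ages in DMD KO, 1 to 7 in WT and 3 to 6 in the interaction. Probe sets called ranged from 702 to 2036, 1143 to 3210, 1180 to 2294, 368 to 757 and 789 to 1265 in the same order. Of the probe set counts, those between genotypes at 3 months were 702 without DMD KO replicate 3, 776 without WT replicate 2 and 725 without WT replicate 3 at 3 months, and 2036 without WT replicate 3 at 2 days. Those at 2 days were, leaving out a newborn DMD KO array, 1302 (replicate 2), 1284 (replicate 3) and 1143 (replicate 4), and 1211 when WT replicate 3 at 2 days was left out, and that between ages in WT was 368 without WT replicate 3 at 3 months. Why the counts moved was not tested. Some settings leave fewer arrays or probe sets, and the part of that in the counts was not tested either.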

Other observations

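Some genes of the pathway lists passed between ages only. SLC4A4, a sodium bicarbonate cotransporter, was higher at 3 months than at 2 days in DMD KO (0.61 ± 0.13, SE, adjusted p = 0.0107) and in WT (0.69 ± 0.14, SE, adjusted p = 0.0202). PRKAB2, a scaffold subunit of AMP-activated protein kinase, was higher at 3 months in WT (0.78 ± 0.19, SE, adjusted p = 0.0456). In DMD KO the adenylate kinase AK5 was higher at 3 months (0.54 ± 0.12, SE, adjusted p = 0.0150) at means of 6.66 and 6.12 at 3 months and 2 days, and CA14 was lower (-0.74 ± 0.18, SE, adjusted p = 0.0199). The AK5 mean at 2 days lay below the 25th percentile of the arrays. Leaving out single arrays was not run for these 4 genes. Whether these age differences differed between genotypes was tested by the interaction, which 0 of the 4 passed in limma (3 at an unadjusted p under 0.05).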
